A study of Mus musculus with 2 samples.

Results

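Cycling cells of all lineages were examined in a tamoxifen and an oil library of single-cell RNA-seq, made from CD45-positive cells of the adult mouse lung. A cell barcode was kept when it had at least 300 genes and under 10% mitochondrial UMIs (unique molecular identifiers, which count captured transcripts). Cycling cells were selected on raw UMIs of 7 proliferation transcripts (Mki67, Top2a, Birc5, Cdk1, Ube2c, Tpx2 and Ccnb2), of which at least 3 had to have 1 UMI or more. This rule found 469 cycling cells among 16932 kept cells, 277 of 10138 in the tamoxifen library and 192 of 6794 in the oil library. The cells were then split by 6 gates on raw UMIs. These were 1 UMI of Cd3d, Cd3e or Cd3g for T cells, 2 UMIs of Cd79a for B cells, 2 of Krt79 plus Plet1 for alveolar macrophages, 5 of C1qa plus C1qb for C1q macrophages, 1 of Xcr1 or Clec9a for type 1 conventional dendritic cells (cDC1) and 1 of Mgl2 or Cd209a for type 2 (cDC2). A cell may pass several gates or none.

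A dividing cell copies its DNA in S phase, separates the copies in mitosis and rests or grows in the gap phases between. Cyclin D with Cdk4 or Cdk6 inactivates the retinoblastoma proteins, which frees E2F factors to induce the genes of replication. The later genes of G2 and mitosis are induced by B-Myb, FoxM1 and NF-Y, and the anaphase-promoting complex ends mitosis by marking securin and cyclin B for destruction. In the lung, alveolar macrophages maintain themselves by division in place, resident lymphocytes can divide in the tissue, and dendritic cells are renewed from precursors that divide until late in their development.

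The tamoxifen library came from tamoxifen-injected Gli1creERT/Hhipflo/flox mice, and the oil library from oil-injected mice of the same genotype, so the controls carry the same Cre and floxed alleles. Cre is driven from Gli1, a Hedgehog target gene of mesenchymal cells, and the product of Hhip captures Hedgehog ligands at the cell surface. A CD45 antibody had been given into the blood before death, and live CD45-positive cells without that label were sorted. The number, age in weeks, sex and strain of the animals are not stated in the labels, and with 1 library per group there was no test and no p-value. Intervals are 95% intervals that cover counting error only, and every ratio compares these libraries, not the treatments.

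Hhip, the targeted gene, had 29 UMIs in 13 of 10138 kept cells of the tamoxifen library and 40 UMIs in 24 of 6794 of the oil library. Among cycling cells it had 0 UMIs in the tamoxifen library and 2 in the oil library. A 3' tag outside the deleted part does not check the deletion, and the sorted cells are not those in which Gli1 drives Cre. The files held 83730550 UMIs in 12980 barcodes of the tamoxifen library and 57704412 UMIs in 10342 barcodes of the oil library. The mitochondrial limit was exceeded by 20.7% of tamoxifen and 31.9% of oil barcodes. Ptprc, which encodes CD45, had a UMI in 96.4% of tamoxifen and 97.9% of oil cycling cells. Among 18 barcodes kept in both libraries, 2 were cycling in either library and 0 in both.

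Promoters of 4 cycle genes are shown because the genes that set these cells apart include early and late genes of the cycle, whose promoters differ in how often they hold certain short words. Ccnb2 (cyclin B2), Cdk1 (its kinase) and Top2a (topoisomerase II, which untangles sister chromatids) belong to the late group and to the 7 transcripts that chose the cells. Mcm6, a subunit of the replicative helicase, belongs to the early group. Each sequence runs 5′ to 3′ on the gene's strand from 200 bases before to 20 bases after the start, from RefSeq on GRCm38.p6. The positions are chr9:70421535-70421754 for Ccnb2, chr10:69352893-69353112 for Cdk1, chr11:99024170-99024389 for Top2a and chr1:128359686-128359905 for Mcm6, all on the minus strand. Capitals mark CCAAT, the word NF-Y binds, the cell cycle homology region (TTTGAA or TTCGAA) and the E2F words (TTTCCCGC, TTTCGCGC, TTTGCCGC or TTTGGCGC), each in either orientation.
Ccnb2: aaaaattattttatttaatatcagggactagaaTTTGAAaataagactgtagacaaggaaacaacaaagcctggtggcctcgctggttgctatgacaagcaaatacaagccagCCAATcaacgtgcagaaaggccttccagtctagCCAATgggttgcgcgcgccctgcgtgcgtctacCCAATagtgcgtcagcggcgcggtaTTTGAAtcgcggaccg
Cdk1: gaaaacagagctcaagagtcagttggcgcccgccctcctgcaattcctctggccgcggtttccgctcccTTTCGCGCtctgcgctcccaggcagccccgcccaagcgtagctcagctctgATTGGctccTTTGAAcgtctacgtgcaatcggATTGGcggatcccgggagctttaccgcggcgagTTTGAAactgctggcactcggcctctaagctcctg
Top2a: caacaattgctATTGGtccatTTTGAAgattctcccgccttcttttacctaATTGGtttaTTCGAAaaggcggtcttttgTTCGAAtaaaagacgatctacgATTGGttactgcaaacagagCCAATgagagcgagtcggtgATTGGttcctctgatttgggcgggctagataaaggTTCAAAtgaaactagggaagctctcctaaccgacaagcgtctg
Mcm6: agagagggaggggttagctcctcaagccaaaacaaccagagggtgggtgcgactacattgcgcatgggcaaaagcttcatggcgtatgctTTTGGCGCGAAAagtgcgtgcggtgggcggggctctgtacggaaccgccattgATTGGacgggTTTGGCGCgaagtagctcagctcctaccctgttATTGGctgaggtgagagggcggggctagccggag
In the Ccnb2 promoter, CCAAT stood 87, 54 and 21 bases before the start, so the words were 33 bases apart, with TTTGAA at base 5 after the start. Cdk1 had CCAAT words 80 and 48 bases before the start, TTTGAA at 71 and 15 bases and an E2F word at 131 bases. Top2a held 5 CCAAT words and 4 homology words. Mcm6 held 3 E2F words, at 110, 106 and 47 bases before the start, of which the first and second overlap, CCAAT words at 57 and 14 bases and no homology word.

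Over whole lists, promoters were searched from 250 bases before to 50 bases after the start. CCAAT was found in 13 of 15 matched promoters of G2 and mitotic kinases and cyclins (86.7%), in 12 of 16 of kinetochore genes (75%) and in 16 of 25 of spindle and cytokinesis genes (64.0%). It was also in 15 of 26 of replication genes (57.7%), beside 37.9% of all 27025 promoters in the table. The homology word was found in 9 of 15, 10 of 16 and 19 of 25 of the kinase, kinetochore and spindle lists (60.0%, 62.5% and 76.0%) and in 7 of 26 of replication genes (26.9%), beside 19.4% of all promoters. Of 26 matched promoters of replication genes, 13 held an E2F word (50.0%), beside 2.32% of all promoters and 0 of 15 in the kinase list. A match is a description of letters and not a binding site. The windows of Birc5 and of Pttg1 (securin) held none of these words, which draws nothing about the factors.

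The 7 transcripts chose the cells, so their levels are a description. Mki67, a chromosome-coating protein of dividing cells, had 611 CPM (UMIs per 1000000) in cycling cells of the tamoxifen library, against 20.4 CPM in other cells. In the oil library it had 726 CPM in cycling cells, against 30.03 CPM in other cells. Top2a had 579 CPM in cycling and 6.89 CPM in other cells of the tamoxifen library, and 669 and 7.83 CPM in the oil library. Birc5 (survivin, of the chromosomal passenger complex) was the sharpest of the 7. Cycling cells held 94.5% of all its UMIs in the tamoxifen library and 95.6% in the oil library, although they are under 3% of the cells. Mki67 was the broadest, with a UMI in 94.6% of cycling and 7.59% of other cells of the tamoxifen library, and in 94.8% and 10.1% in the oil library. The ungated neutrophils, a type that does not divide in tissue, had an Mki67 UMI in 2.5% of 80 cells of the tamoxifen library and 3.85% of 26 of the oil library. They are shallow, with a median of 2773.5 UMIs per neutrophil, against 16699 per cycling cell, in the tamoxifen library, and 2508 against 20423.5 in the oil library.

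Cells just inside the threshold, with 3 of the transcripts, were 61 in the tamoxifen and 41 in the oil library, and cells just outside, with 2, were 175 and 145. G2/M transcripts other than the 7 made up 16.1 of 10000 UMIs just inside in the tamoxifen library and 16.4 in the oil library. Just outside they made up 8.80 and 9.11 of 10000, close to the 6.69 and 6.31 of cells with none of the 7. Cells with all 7 reached 89.1 and 88.8. Transcripts of replication followed another course, with 15.2 and 12.8 of 10000 UMIs at 3 of the 7 transcripts, 25.8 and 21.9 at 6, and 17.4 and 17.9 at 7. Just outside, replication transcripts made up 6.20 and 7.18 of 10000, against 3.26 and 3.07 in cells with none. The class just outside thus stands near the cells with none in G2/M transcripts but above them in replication transcripts. The class just inside lies above it in both, and the full class has fewer replication transcripts than the class below it. Against 7 other markers (Ccna2, Ccnb1, Nusap1, Prc1, Cenpf, Cenpe and Hmmr), 178 of 277 cycling cells of the tamoxifen library (64.3%) had at least 3, as had 2 of 9861 other cells. In the oil library 142 of 192 cycling cells (74.0%) and 3 of 6602 other cells had at least 3.

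**Figure D1:**
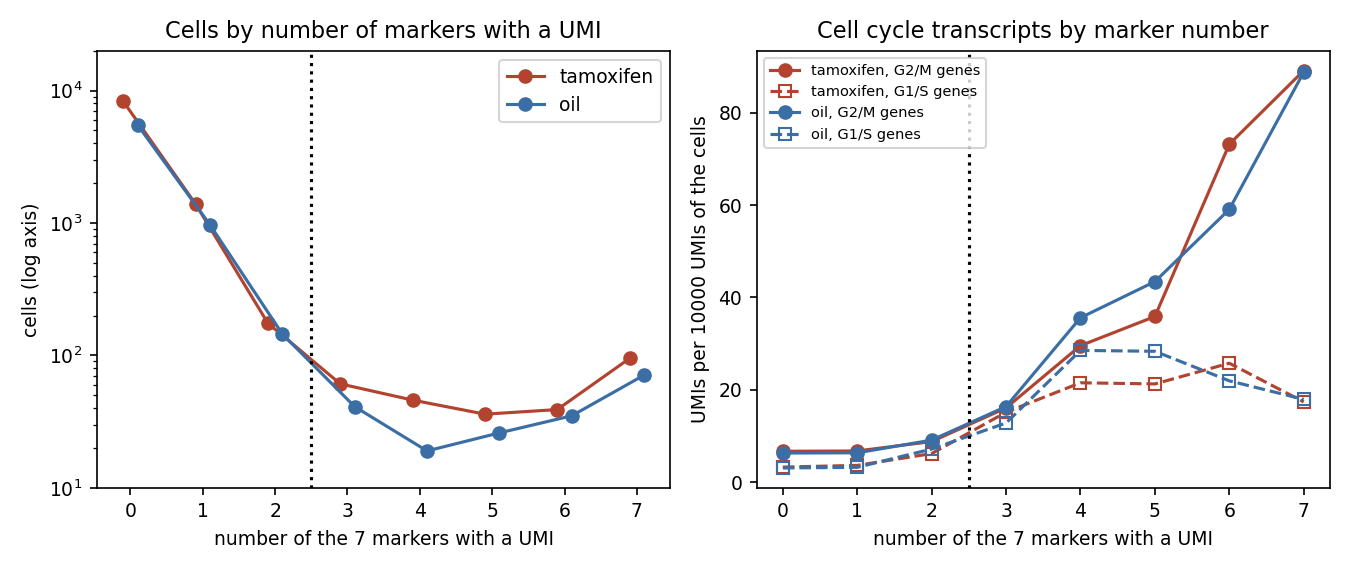
Number of the 7 transcripts with a UMI in each kept cell (left, log axis) and the UMIs of G1/S and G2/M gene lists per 10000 UMIs of the cells in each class (right), for the tamoxifen and oil libraries. The dotted line is the threshold. G2/M transcripts reach 89.1 (tamoxifen) and 88.8 (oil) per 10000 in cells with all 7.

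Cycling cells were much deeper than the rest. Their median was 16699 UMIs and 3665 genes in the tamoxifen library, against 6289 UMIs and 1911 genes in other cells, and 20423.5 UMIs and 3744 genes in the oil library, against 6236 and 1839. The rule needs UMIs of 3 sparse transcripts, so depth enters the call. The share called cycling was 0.335% of tamoxifen and 0.295% of oil cells under 2500 UMIs, and 31.9% and 34.4% of cells with 20000 UMIs or more. With every cell thinned to 1500 UMIs, the rule found 98 of 9108 tamoxifen cells (1.08%) and 83 of 5868 oil cells (1.41%), all of them cells it had found before thinning. Scrublet, which scores likeness to simulated pairs of cells, marked as likely doublets 17.3% of cycling and 7.85% of other cells of the tamoxifen library, and 10.9% and 5.27% of the oil library. The part of depth and doublets in the results below was not tested except where a value without them is given.

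The overall share of cycling cells was 2.73% (2.42% to 3.07%) in the tamoxifen library and 2.83% (2.44% to 3.25%) in the oil library, a log2 ratio of -0.05 (-0.31 to 0.21). In the cells as sequenced, with overlapping gates, cDC1 had the highest share of the 6 gates, with 80 of 1013 cells cycling in the tamoxifen library (7.90%) and 51 of 659 in the oil library (7.74%). The cDC2 gate followed with 89 of 1659 (5.36%) and 117 of 2035 (5.75%). In the alveolar macrophage gate 88 of 2507 tamoxifen cells (3.51%) and 23 of 476 oil cells (4.83%) were cycling, and in the C1q gate 41 of 1262 (3.25%) and 39 of 1221 (3.19%). The T gate had 115 of 5127 (2.24%) and 72 of 3019 (2.38%). B cells had 9 of 415 (2.17%) and 2 of 233 (0.858%), and cells of no gate 10 of 1240 (0.806%) and 9 of 1397 (0.644%). The interval of the log2 ratio of tamoxifen over oil held 0 in each of the 6 gates under this rule. With 2 of the 7 transcripts in place of 3, the cDC1 shares were 11.1% in the tamoxifen and 15.5% in the oil library, and that ratio was -0.49 (-0.85 to -0.13), an interval without 0. Under the rule the interval ran from -0.51 to 0.33 in the T gate, from -0.46 to 0.52 in the cDC1 gate, from -1.11 to 0.19 in the alveolar macrophage gate and from -0.86 to 3.54 in the B gate. Ratios inside these intervals could therefore not be told from 0 with these numbers of cycling cells, and equal shares were not shown. The order of gates was not stable, and the intervals of cDC1 and cDC2 overlapped in each comparison that follows. Among cells of exactly 1 gate the cDC2 shares were above those of cDC1, which were 8.06% (22 cells) in the tamoxifen and 5.88% (13 cells) in the oil library. The cDC1 intervals were 5.12% to 11.9% and 3.17% to 9.85%, and those of cDC2 5.40% to 13.5% and 4.94% to 9.82%. After thinning to 1500 UMIs cDC1 had 1.91% (0.77% to 3.90%) in the tamoxifen library. In the oil library cDC1 had 1.12% (0.23% to 3.22%) and cDC2 had 2.41% (1.66% to 3.36%). Cell depth follows the order of gates in part. The median of other cells was 13364 UMIs in the cDC1 gate and 5552.5 in the T gate of the tamoxifen library, and 14549 and 5919 in the oil library. In cells of no gate it was lower than in each of the 6 gates, at 1694 in the tamoxifen and 2156.5 in the oil library. The part of depth in their low share was not tested.

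**Figure D2:**
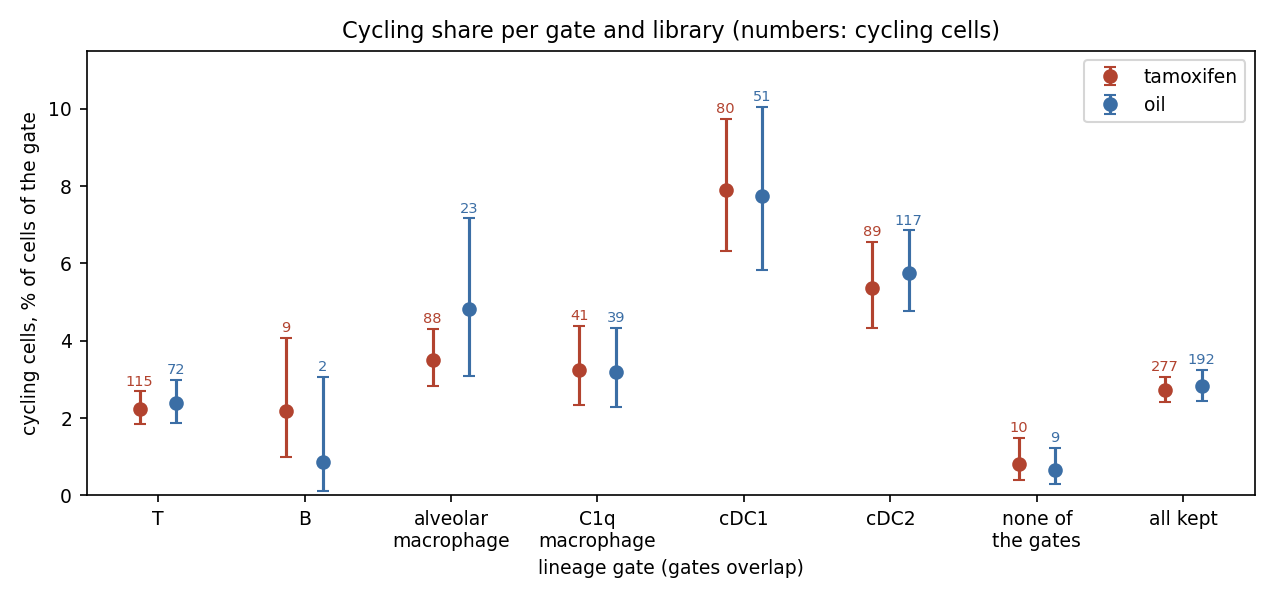
Cycling cells as a percentage of the cells of each lineage gate, with exact Clopper-Pearson 95% intervals (counting error only) and the number of cycling cells above each point. With these overlapping gates and unthinned cells the cDC1 gate is highest in the tamoxifen (7.90%) and oil (7.74%) libraries, but not among cells of exactly 1 gate or, in the oil library, after thinning. In those settings the intervals of cDC1 and cDC2 overlap. Within each gate the intervals of the libraries overlap.

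The make-up of the cycling cells differed between the libraries with the make-up of all cells. The T gate held 41.5% of cycling cells in the tamoxifen library and 37.5% in the oil library. Alveolar macrophage gates held 31.8% of tamoxifen and 12.0% of oil cycling cells, beside 24.7% and 7.01% of all kept cells. The cDC2 gate held 32.1% of tamoxifen and 60.9% of oil cycling cells, beside 16.4% and 29.95% of all kept cells. Gates overlapped in 41.2% of cycling and 23.7% of other cells of the tamoxifen library, and in 50.0% and 25.9% of the oil library. After thinning to 1500 UMIs the overlap was 8.39% of cycling and 9.59% of other cells of the tamoxifen library, and 16.8% and 14.4% of the oil library. Cycling cells here were the 274 tamoxifen and 191 oil cells chosen at full depth that had at least 1500 UMIs. They include cells that no longer passed the rule when thinned. In the C1q gate 27 of 41 cycling cells of the tamoxifen library and 37 of 39 of the oil library also passed the cDC2 gate. Among cells that passed only the C1q gate, 9 of 258 tamoxifen cells cycled and 0 of 121 oil cells, which allows a share of up to 2.48% by the limit of 3 counts and 3.003% by the Clopper-Pearson interval. With cells of exactly 1 gate the alveolar macrophage shares were 2.65% (40 cells) in the tamoxifen and 2.10% (5 cells) in the oil library, and those of cDC2 were 8.84% (19 cells) and 7.10% (33 cells).

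Genes the gates did not use were checked in the cycling cells inside and outside each gate. Trac, the T cell receptor alpha constant gene, had 292 CPM inside and 1.05 CPM outside the T gate in the tamoxifen library, and 272 and 0.397 CPM in the oil library. C1qc, the remaining C1q chain, had a UMI in 92.7% of cycling cells inside and 6.78% outside the C1q gate of the tamoxifen library, and in 92.3% and 7.84% in the oil library. Cadm1, a cDC1 adhesion molecule, was found in 77.5% inside and 13.2% outside in the tamoxifen library, and in 78.4% and 24.1% in the oil library. The weakest labels were those of alveolar macrophages and cDC2. Chil3, an abundant alveolar macrophage lectin, had a UMI in 83.0% of cycling cells of that gate in the tamoxifen library but in 47.8% of 23 in the oil library, and the scavenger receptor Marco in 31.8% and 34.8%. Clec10a, a cDC2 lectin, was in 46.1% inside and 5.32% outside in the tamoxifen library and in 45.3% and 6.67% in the oil library. Sirpa, also used to mark cDC2, was lower inside than outside in the tamoxifen library (115 and 189 CPM) and higher in the oil library (94.5 and 62.2 CPM).

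Gates for other types, from longer marker sets, found cycling cells as well. These gates overlap the 6 above, so many of their cells also carry a lineage gate, and their shares need not describe the type named. Of cells with at least 3 UMIs of Il1rl1, Areg, Gata3, Il13 and Calca, genes of type 2 innate lymphoid cells, 50 of 1339 cycled in the tamoxifen library (3.73%) and 47 of 1276 in the oil library (3.68%). Of those that passed none of the 6 gates, 0 of 106 cycled in the tamoxifen and 4 of 278 (1.44%) in the oil library. The plasma cell gate had 25 of 538 (4.65%) and 5 of 151 (3.31%), and the natural killer gate 1 of 139 and 6 of 229. Of neutrophils 4 of 160 cycled in the tamoxifen library and 0 of 38 in the oil library, which allows up to 7.89% by the limit of 3 counts and 9.25% by the Clopper-Pearson interval. A gate on neutrophil progenitor genes (Elane, Mpo, Prtn3 and Ctsg) took 9 tamoxifen cells, of which 5 cycled, and 6 oil cells, of which 0 did. Elane had 1 UMI and Mpo 0 in all cycling tamoxifen cells. These 5 cells thus passed mainly on Prtn3 and Ctsg, and whether they are progenitors was not tested. The monocyte gate had 82 of 1233 cycling (6.65%) in the tamoxifen and 68 of 943 (7.21%) in the oil library. The migratory dendritic cell gate had 65 of 849 (7.66%) and 67 of 831 (8.06%), and the plasmacytoid gate 22 of 281 (7.83%) and 22 of 198 (11.1%). With none of the 6 gates, the migratory shares were 3 of 114 (2.63%) and 1 of 108 (0.926%). Those of monocytes were 5 of 83 (6.02%) and 4 of 46 (8.70%). Plasmacytoid cells then had 2 of 34 and 2 of 30, and plasma cells 2 of 8 and 0 of 3. Of cells with markers of types outside the sort, 1 of 118 and 4 of 146 cycled in the fibroblast gate and 4 of 320 and 9 of 358 in the endothelial gate. With none of the 6 gates, 0 of 51 and 0 of 71 cycled in the fibroblast gate. In the endothelial gate these were 0 of 198 and 2 of 234. Cells with 3 UMIs of Epcam, Krt8, Krt18, Cdh1 and Nkx2-1 were 22.0% of cycling and 5.70% of other cells of the tamoxifen library, and 29.2% and 7.72% of the oil library, while Sftpc, the defining transcript of alveolar epithelium, had 25 and 12 UMIs in all cycling cells. Cells with Xist and no Y-linked transcript, and the reverse, were compared after the shares were seen. Cycling cells were 2.88% of female tamoxifen and 3.28% of female oil cells, and 4.05% of male tamoxifen and 3.26% of male oil cells, with log2 ratios of -0.19 (-0.52 to 0.14) and 0.32 (-0.22 to 0.85).

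To describe the transcripts that set cycling cells apart, UMIs in cycling cells were compared with those expected from other cells of the same library with the same combination of gates. This is the contrast the rule used, so the ratios below are a description and support nothing. Genes with at least 20 observed plus expected UMIs were measured. Of 11070 in the tamoxifen library, 7.23% were at least 2-fold higher and 5.28% at least 2-fold lower in cycling cells, and of 10587 in the oil library 7.91% and 5.06%. The median log2 ratio over all of them was -0.01 and 0.05. In both libraries together 632 genes were 2-fold higher and 260 were 2-fold lower, of 10442 measured in both.

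Replication genes were higher as a block. Of 35 genes of origin licensing and DNA synthesis, 34 in the tamoxifen and 35 in the oil library were at least 2-fold higher, with medians of 2.70 and 2.83 on the log2 scale. Mcm5, a helicase subunit, had 86.8 CPM in cycling cells and 9.73 CPM expected in the tamoxifen library (3.16), and 89.2 and 10.9 CPM in the oil library (3.03). Cyclin E2 (Ccne2), which starts S phase, was higher by 4.46 and 5.59. The sliding clamp Pcna, also used in repair, was higher by 1.92 and 2.14. The smallest ratio of the list was that of Gins4, at 0.94 in the tamoxifen and 1.17 in the oil library.

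The supply of nucleotides and histones followed. Of 14 nucleotide synthesis genes 10 and 13 were 2-fold higher (medians 1.77 and 1.89). The regulated subunit of ribonucleotide reductase, Rrm2, stood highest at 6.53 in the tamoxifen and 6.64 in the oil library, and thymidine kinase Tk1 at 5.03 and 5.14. The purine enzymes Gart (0.73 and 1.03) and Impdh2 (0.86 and 0.96), which resting cells also need, stood lowest. All 20 genes of chromatin assembly and histones were 2-fold higher in each library (medians 3.29 and 3.32). Linker histone Hist1h1b had 831 CPM in cycling cells and 4.63 CPM expected in the tamoxifen library (7.49), and 948 and 5.38 CPM in the oil library (7.46). Replication histone genes are near-identical copies, so the split of UMIs between them is uncertain. Of 19 genes of S phase repair 18 were 2-fold higher in each library (medians 4.08 and 4.0).

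Of the lists outside the 7 transcripts, those of mitotic kinases, kinetochores and the spindle had the largest medians. Single histone genes reached similar ratios, with Hist1h3c at 8.07 and 7.95 and Hist1h3b at 8.07 and 10.23. Of 21 mitotic kinases and cyclins, 21 of 21 measured in the tamoxifen and 20 of 20 in the oil library were 2-fold higher (medians 4.90 and 5.03). Cyclin A2 (Ccna2) ranked first among genes outside the 7 by the interval bound nearest to 0, with 430 UMIs in cycling cells of the tamoxifen library where 1.34 were expected, a log2 ratio of 8.33 (7.66 to 9.09). In the oil library it had 353 UMIs where 0.934 were expected, a ratio of 8.56 (7.72 to 9.56). Only 25 and 16 UMIs of it lay in all the other cells. Polo-like kinase 1 (Plk1) was higher by 8.0 and 6.86, the checkpoint kinase Bub1 by 8.10 and 7.15 and Aurora B (Aurkb) by 5.48 and 6.20. Lowest in this list were the checkpoint protein Bub3 (1.02 and 1.31) and Wee1 (1.25 and 1.11), the kinase that holds Cdk1 back.

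All 21 kinetochore and centromere genes were 2-fold higher in each library (medians 5.27 and 5.26), as were all 28 genes of the spindle and cytokinesis (4.69 and 5.0). Ska1, which couples kinetochores to microtubules, had 149 UMIs where 0.470 were expected in the tamoxifen library and 134 where 0.298 were expected in the oil library (8.31 and 8.81). Cenpf, a kinetochore protein, was higher by 7.81 and 7.25, the microtubule proteins Nusap1 by 7.66 and 8.07 and Hmmr by 8.07 and 8.17, and the motor Kif4 by 7.40 and 8.19. Tubulin genes, expressed by all cells, were at the low end, with Tuba1c at 1.35 and 1.46. Of 12 condensin and cohesin genes 11 were 2-fold higher in each library (2.77 and 2.96). The condensin subunit Ncapg was higher by 7.26 and 6.18 and the cohesin acetylase Esco2 by 8.14 and 7.15, while Wapl, which releases cohesin, was at -0.13 and 0.14.

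The list of the anaphase-promoting complex and mitotic exit was split. Of 10 genes 5 in the tamoxifen and 6 in the oil library were 2-fold higher (medians 1.36 and 1.29). Its activator Cdc20 was higher by 6.03 and 5.95, its inhibitor Fbxo5 by 4.80 and 5.08 and the checkpoint protein Mad2l1 by 4.11 and 4.21. Core subunits stood nearer to 0, with Cdc27 at 0.30 and 0.87 and Anapc13 at 0.38 and 0.48. Securin (Pttg1), which blocks sister separation until it is destroyed, had 36.9 CPM in cycling cells and 40.4 CPM expected in the tamoxifen library, a log2 ratio of -0.13 (-0.36 to 0.09). In the oil library it had 33.6 CPM and 36.5 CPM expected, a ratio of -0.12 (-0.39 to 0.14). Pooled over gates, its transcript was thus no higher in cycling cells in either library, while its partner separase (Espl1) was higher by 1.79 and 1.25. Within the alveolar macrophage gate of the tamoxifen library all 10 genes of the list, securin included, were above 0. In that gate of the oil library 5 of 6 measured genes were above 0.

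**Figure D3:**
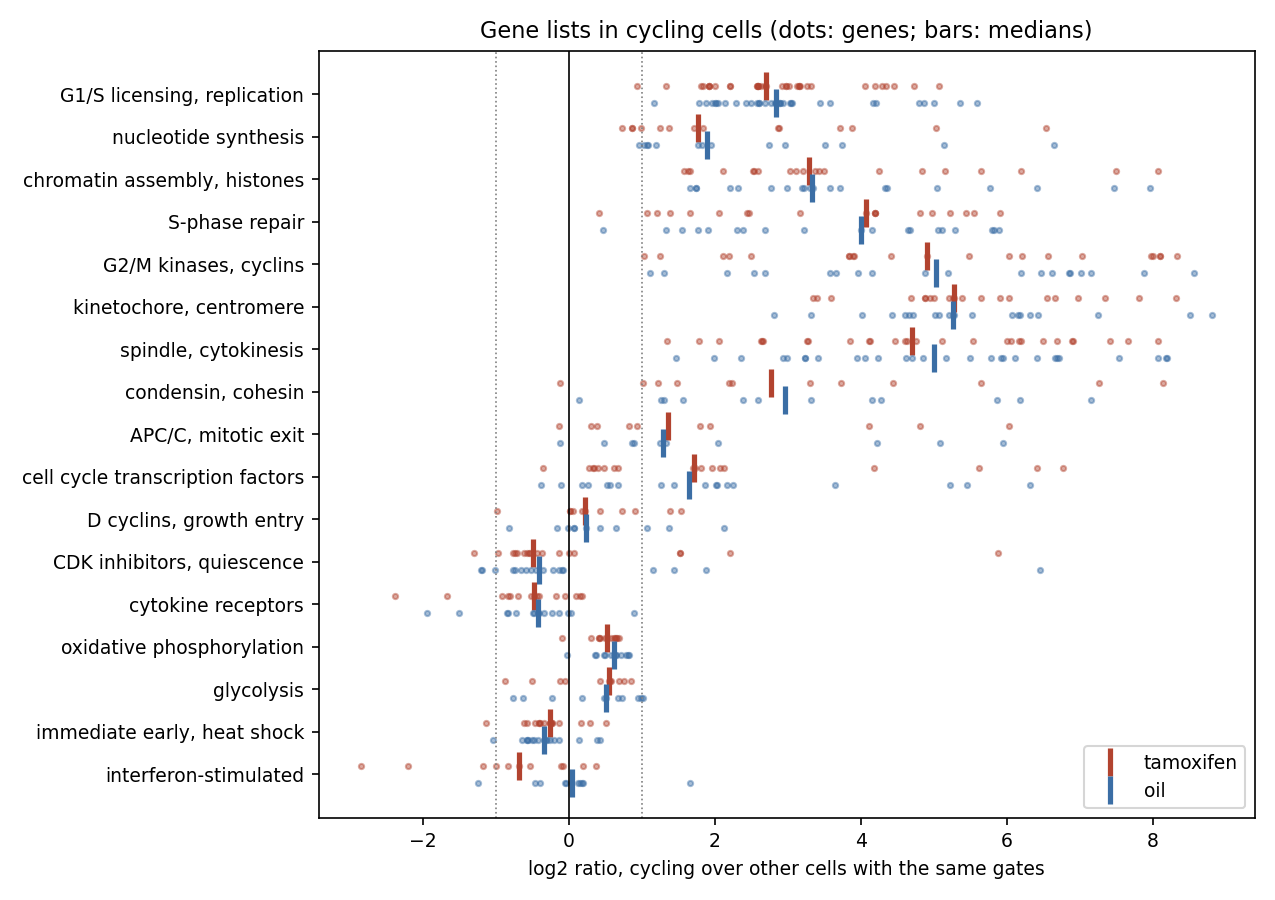
Log2 ratio of observed over expected UMIs in cycling cells for the members of 17 gene lists (points) with the list medians (bars), for the tamoxifen and oil libraries. Dotted lines mark 2-fold. Kinetochore genes have the highest medians (5.27 and 5.26), and lists of growth entry, quiescence and cytokine receptors lie near or below 0.

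Genes that act before the commitment to S phase gave mixed ratios. Of 11 measured genes of D cyclins and growth entry, 2 in the tamoxifen and 3 in the oil library were 2-fold higher (medians 0.22 and 0.23). The kinase genes Cdk4 and Cdk2 were higher, Cdk4 by 1.39 (1.25 to 1.53) and 1.37 (1.21 to 1.53) and Cdk2 by 1.53 and 2.12. Cyclin D2 (Ccnd2) was lower, with 182 CPM in cycling cells and 361 CPM expected in the tamoxifen library, and 208 and 368 CPM in the oil library, log2 ratios of -0.99 (-1.08 to -0.89) and -0.82 (-0.93 to -0.72). Cyclin D1 was at 0.19 and 0.07 and cyclin D3 at 0.22 and 0.23, small ratios above 0, with Cdk6 at 0.02 and 0.07 and Myc at 0.02 and -0.01. The nucleolar genes Ncl (0.73 and 0.64) and Nop56 (0.91 and 1.07) were higher.

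CDK inhibitors differed in both directions. Of 18 genes of this list, which holds quiescence genes as well, 4 were 2-fold higher in each library and 1 in the tamoxifen and 3 in the oil library were 2-fold lower (medians -0.49 and -0.41). The higher members were the phosphatase Cdkn3 (5.87 and 6.45), which acts on Cdk1 in mitosis, and the INK4 inhibitors Cdkn2c (2.20 and 1.88), Cdkn2d (1.53 and 1.44) and Cdkn2a (1.53 and 1.16). The p21 gene Cdkn1a was at 0.07 and -0.13 and the p27 gene Cdkn1b at -0.13 and -0.09. After thinning, Cdkn1b in the tamoxifen library was at 0.17 (-0.25 to 0.56). The antiproliferative Btg1 was lower, at -0.71 and -0.74, as were Mxd4, an antagonist of Myc, at -0.97 and -1.19, and the lymphocyte quiescence factor Klf2 at -0.73 and -0.52.

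Of 18 cell cycle transcription factors and pocket proteins, 10 in the tamoxifen and 11 in the oil library were 2-fold higher (medians 1.72 and 1.65). The late activators Mybl2 (6.42 and 6.31) and Foxm1 (5.62 and 5.46) and the late E2F repressor E2f7 (6.77 and 5.23) stood highest. The activator E2f1 was higher by 1.73 and 2.16. Among the pocket proteins, Rbl1 was higher by 1.96 and 2.24 and Rb1 by 0.28 and 0.27, and Rbl2, which acts in resting cells, was lower at -0.36 (-0.57 to -0.16) and -0.38 (-0.61 to -0.15).

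Receptors for growth factors and cytokines were mostly lower. Of 15 genes 0 were 2-fold higher and 2 were 2-fold lower in each library, with 12 below 0 in the tamoxifen and 13 in the oil library (medians -0.47 and -0.43). The interleukin 7 receptor (Il7r) had 143 CPM in cycling cells and 454 CPM expected in the tamoxifen library, and 141 and 403 CPM in the oil library (-1.67 and -1.51). The other receptor past 2-fold was the neutrophil receptor Csf3r (-2.38 and -1.94). Csf1r, the macrophage growth factor receptor, was at -0.69 and -0.48, while Kit (0.15 and -0.01) and Flt3 (0.10 and 0.03), the receptors of progenitors and dendritic cells, stayed near 0. Among 13 oxidative phosphorylation genes 12 were above 0 in each library (medians 0.52 and 0.62), none by 2-fold. Of 11 glycolysis genes 7 and 8 were above 0 (0.54 and 0.51), with Pgk1 at 0.85 and 1.01 and hexokinase Hk2 at -0.87 and -0.76. Immediate early genes, which also follow tissue dissociation, were lower in 14 of 17 in each library (-0.26 and -0.34), with Ier3 at -1.14 and -1.04 and the chaperone Hspa8 at 0.29 and 0.42. Interferon-stimulated genes were below 0 in 9 of 11 in the tamoxifen library (-0.69) and in 5 of 10 in the oil library (0.04).

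The named genes that were lower were transcripts of stromal and epithelial cells. Dcn, a fibroblast proteoglycan, had 1 UMI in cycling cells of each library where 95.5 were expected in the tamoxifen and 71.5 in the oil library. Sftpc, surfactant protein C of alveolar epithelium, had 25 UMIs where 701 were expected and 12 where 123 were expected. Mgp, Bgn, Col1a1, Col1a2 and Col3a1 were lower as well. A list of 10 transcripts of cells outside the sort, used as a measure of free RNA, was lower in 8 of 9 measured genes in the tamoxifen library and 8 of 8 in the oil library (medians -4.17 and -3.44). With cells thinned to equal depth the medians were -2.17 and -1.14. Mgp in the oil library was at -2.2 with all cells and at -4.37 without marked doublets. The part of free RNA and of doublets in these ratios was not tested further.

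Within the cycling cells the balance of early and late transcripts varied widely. G1/S genes made up 19.2 of 10000 UMIs in cycling and 3.42 in other cells of the tamoxifen library, and 19.8 and 3.27 in the oil library. G2/M genes made up 59.0 and 6.77 in the tamoxifen and 61.0 and 6.44 in the oil library. The middle 50% of cycling cells spanned 5.92 to 29.4 of 10000 for G1/S and 23.1 to 87.1 for G2/M genes in the tamoxifen library, and 5.38 to 29.4 and 27.7 to 85.8 in the oil library. At least 10 UMIs of replication histones were found in 45.1% of cycling and 0.466% of other cells of the tamoxifen library, and in 57.8% and 0.636% of the oil library. The rule uses late transcripts, so a cell in early S phase without them is not counted here.

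Gates differed in this balance, and the order was not the same in the libraries. In the T gate G1/S genes made up 21.7 of 10000 UMIs of cycling cells in the tamoxifen and 26.0 in the oil library, and G2/M genes 66.2 and 54.7. In the C1q gate G1/S genes made up 15.8 and 19.8, and G2/M genes 46.5 and 64.4. The cDC1 gate had 18.1 and 14.1 for G1/S genes with 52.3 and 52.8 for G2/M genes, and the cDC2 gate 17.8 and 17.7 with 55.1 and 56.8. In the alveolar macrophage gate the values were 17.4 and 19.0 for G1/S and 58.9 and 50.0 for G2/M genes. In these pooled UMIs, which weight deep cells, libraries stood in opposite order in the T gate for early and late genes. They stood in the same order in the C1q gate and apart by less than 2 of 10000 in the cDC2 gate. Medians per cycling cell differed from this. For G2/M genes they were 59.6 in the tamoxifen and 59.2 in the oil library in the T gate, and 49.6 and 56.9 in the cDC2 gate. In the C1q gate they were 41.5 and 58.0, in cDC1 45.5 and 50.3, and in alveolar macrophages 49.8 and 47.3.

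**Figure D4:**
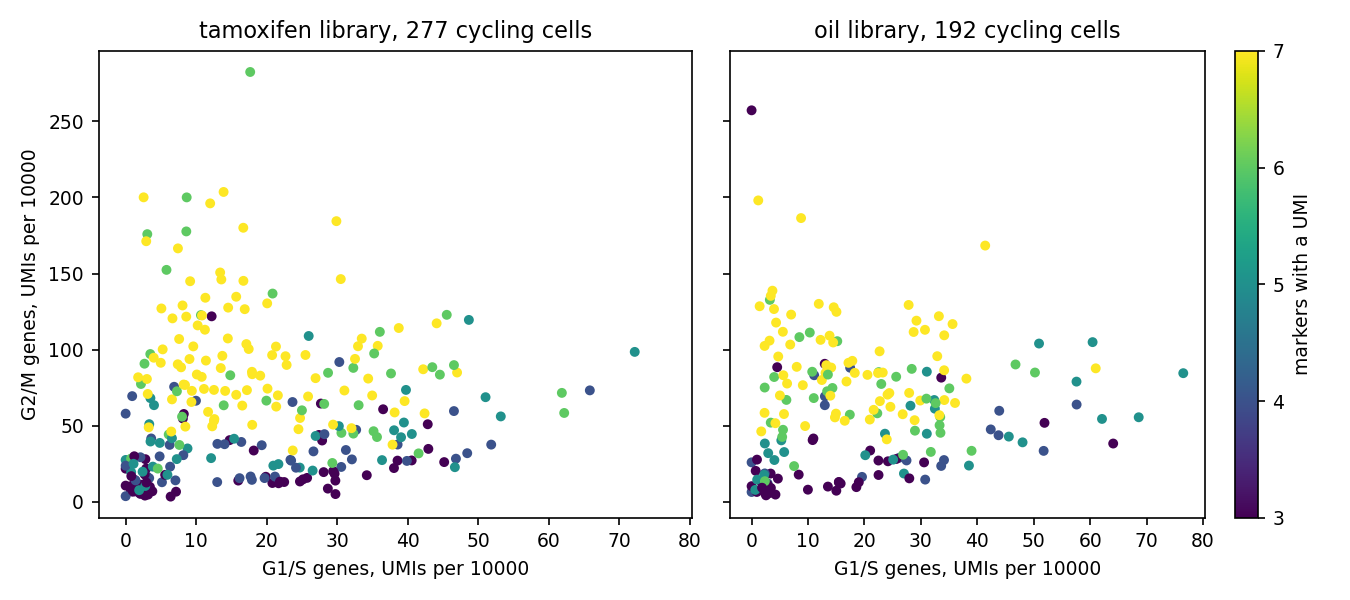
UMIs of G1/S genes (x axis) and G2/M genes (y axis) per 10000 UMIs in each cycling cell of the tamoxifen (left) and oil (right) libraries, coloured by how many of the 7 transcripts had a UMI. Cells with all 7 lie high in G2/M genes, and cells with 3 lie mostly low.

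Cdk4, Cdk2 and cyclin D2 had the same direction in each of the 5 gates with enough cycling cells. Cdk4 was higher in cycling than in other cells of the gate in each gate and library, from 0.96 in alveolar macrophages of the oil library to 1.58 in C1q macrophages of the same library. Cdk2 ran from 1.41 in T cells of the tamoxifen library to 2.5 in T cells of the oil library. Cyclin D2 was lower in each, from -0.60 in C1q macrophages of the tamoxifen library to -1.29 in those of the oil library. Cyclin D1 varied between gates. In T cells it was at -0.09 in the tamoxifen and 0.61 in the oil library. In C1q macrophages it had 254 CPM in cycling cells of the tamoxifen library and 109 CPM expected, a log2 ratio of 1.21 (0.99 to 1.43), against 165 and 153 CPM in the oil library, a ratio of 0.10 (-0.16 to 0.36). Kit in C1q macrophages was at 1.51 in the tamoxifen and 0.32 in the oil library. Btg1 was lower in each gate and library, between -0.43 and -0.95.

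**Figure D5:**
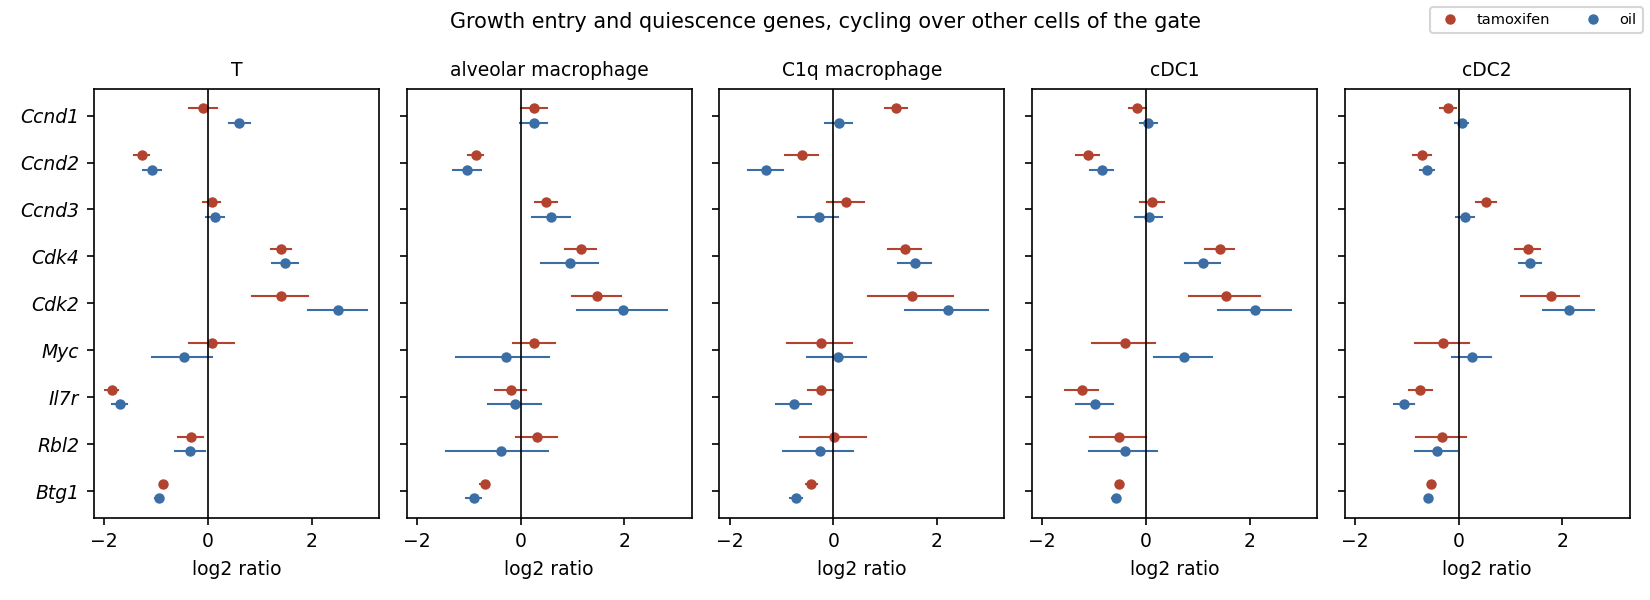
Log2 ratios of cycling over other cells for growth entry and quiescence genes in each gate, with 95% intervals (counting error only), for the tamoxifen and oil libraries. Cdk4 and Cdk2 lie right of 0 and Ccnd2 and Btg1 left of 0 in each gate and library; Il7r is lowest in T cells (-1.86 and -1.70).

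In the T gate, 7.85% of 9479 measured genes were 2-fold higher and 6.15% 2-fold lower in cycling cells of the tamoxifen library, and 9.04% and 5.22% of 8507 in the oil library. Of the T cell activation and effector list, 7 of 21 were above 0 in the tamoxifen library, with 2 higher and 5 lower by 2-fold (median -0.59), and 6 of 20 in the oil library, with 1 higher and 5 lower by 2-fold (-0.27). The genes that follow were chosen after their values were seen. Il7r had 266 CPM in cycling cells and 967 CPM expected in the tamoxifen library, and 283 and 921 CPM in the oil library (-1.86 and -1.70). Tcf7, a factor of naive and memory cells, was at -1.41 and -1.32, the residency chemokine receptor Cxcr6 at -0.91 and -1.15, the costimulator Icos at -1.11 and -0.92 and the interleukin 2 receptor alpha chain Il2ra at -0.92 and -1.14. Tnfrsf4 (OX40), a receptor of activated and regulatory T cells, was higher, at 1.5 in the tamoxifen and 0.68 in the oil library. Effector cytokines differed between the libraries. Il17a had 611 CPM in cycling cells and 604 CPM expected in the tamoxifen library (0.02), and 52.8 and 236 CPM in the oil library (-2.16). Ifng was at 1.06 (63 UMIs) in the tamoxifen and -0.80 (13 UMIs) in the oil library.

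In the alveolar macrophage gate, 6.93% of 8563 measured genes were 2-fold higher and 1.99% 2-fold lower in cycling cells of the tamoxifen library, and 8.54% and 3.5% of 5630 in the oil library. Of 14 identity genes 11 were below 0 in the tamoxifen library (median -0.36), 0 by 2-fold, and 12 in the oil library (-0.85), 6 by 2-fold. The list was as low or lower in gates that should lack it, with medians of -0.71 and -2.07 in T cells, -0.99 and -1.28 in cDC1 and -0.67 and -1.47 in cDC2. Chil3 was at -0.43 in the tamoxifen and -1.42 in the oil library, the ribonuclease Ear2, which has close paralogs, at -0.63 and -1.66 and the fatty acid binding protein Fabp1 at -0.5 and -1.39. Marco was at 0.07 and 0.79. Csf2rb, a chain of the receptor for GM-CSF, on which these cells depend, was at -0.48 and -0.64. In C1q macrophages Csf1r was at -0.78 and -0.60. Flt3, which sustains dendritic cells, was at -0.04 and 0.06 in the cDC1 gate and at 0.11 and 0.00 in the cDC2 gate, with Kit at 0.07 and 0.10 in the cDC1 gate. Ncl, the nucleolin gene, was higher in each of the 5 gates and both libraries, by 0.51 to 0.94.

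The study's comparison was then made within cycling cells of the 4 gates with at least 30 of them in each library, with other cells of the gate beside them. Ratios are tamoxifen over oil on the log2 scale. In the cycling T cells, 4.19% of 9016 measured genes were at least 2-fold higher and 2.97% at least 2-fold lower. In C1q macrophages these shares were 4.24% and 3.11% of 6951, in cDC1 4.08% and 2.14% of 7851, and in cDC2 2.88% and 2.68% of 9051. The medians over all genes were between 0.01 and 0.03.

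The 7 transcripts of the rule had a median of -0.57 in C1q macrophages and of 0.34 in T cells. The medians of the other cell cycle lists lay between -0.51, for kinetochore genes in C1q macrophages, and 0.45, for replication genes in cDC1. In cycling T cells 28 of 35 replication genes were below 0 (median -0.24; 0.07 in other T cells), 1 by 2-fold. Of 20 mitotic kinases and cyclins 16 were above 0 (0.34; 0.26 in other T cells), 4 by 2-fold, and of 28 spindle genes 24 (0.33; 0.01), 1 by 2-fold. In C1q macrophages 27 of 28 spindle genes (-0.49; 0.09 in other cells) and 19 of 20 histone and chromatin genes (-0.25; 0.08) were below 0, 5 and 0 of them by 2-fold. In cDC1, 29 of 33 replication genes were above 0 (0.45; -0.09), 1 by 2-fold. In cDC2 the medians of all these lists lay between -0.10 and 0.06.

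Named genes in cycling T cells came from few cells. S100a9, an alarmin of neutrophils, had 9408 UMIs in 22 of 115 tamoxifen cells and 1 UMI in 1 of 72 oil cells, a log2 ratio of 12.67 (10.19 to 17.97), beside 2.63 in other T cells. Ngp, a granule protein of developing neutrophils, had 3014 UMIs in 3 tamoxifen cells and 0 in the oil library, at least 694-fold higher with 3 UMIs in place of 0. The part of neutrophil lineage cells or their RNA in these ratios was not tested beyond the value that follows. Without cells that held at least 10 UMIs of Ngp, an alternative chosen after seeing the data, the S100a9 ratio was 3.91. Cells with 10 or more Ngp UMIs were 20 in the tamoxifen library, 3 of them cycling. Of the neutrophil progenitor genes, Elane had 1 UMI and Mpo 0 in all cycling cells of the tamoxifen library, and 0 each in the oil library. Genes lower in the tamoxifen library were the chemokines Cxcl13 (22 UMIs in 3 cells against 573 in 3 cells, -5.24) and Xcl1 (23 in 7 cells against 385 in 3 cells, -4.60). In other T cells these were at -2.02 and -0.38. Immediate early genes were below 0 in 16 of 17 (median -0.54), beside -0.13 in other T cells.

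In cycling cells of the C1q gate, 27 of 41 and 37 of 39 of which also passed the cDC2 gate, the 6 named genes higher in the tamoxifen library were Chil3, Fabp1, Cxcl9, Ear1, Lyz1 and Mmp19. Chil3 had 207 UMIs in 14 of 41 tamoxifen cells and 3 UMIs in 3 of 39 oil cells (6.13; 1.67 in other cells of the gate). Fabp1 had 70 UMIs in 8 cells and 0, at least 23.7-fold higher. Cxcl9, induced by interferon gamma, had 350 UMIs in 6 cells against 11 in 3 cells (5.01; 2.91 in other cells), and 257 of the 481 Cxcl9 UMIs of all cycling tamoxifen cells lay in 1 cell. The alveolar macrophage list was above 0 in 9 of 10 genes here (median 3.94; 1.71 in other cells) and in 12 of 12 in the T gate (3.53; 2.09), so it was higher in a gate that should lack it as well. Alveolar macrophage gates held 24.7% of all kept tamoxifen cells and 7.01% of all kept oil cells, and the part of that difference in these ratios was not tested. Lower genes were the chemokines Ccl4 (92 UMIs in 11 cells against 825 in 18 cells, -3.14), Ccl3 (37 in 8 cells against 324 in 22 cells, -3.11) and Cxcl1 (40 in 7 cells against 187 in 11 cells, -2.2), and the cholesterol hydroxylase Ch25h (4 in 2 cells against 57 in 12 cells, -3.81). In other C1q macrophages these were at -0.86, -0.70, 0.09 and -0.55. Of the 2501 Ccl4 UMIs of all cycling oil cells 557 lay in 1 cell, and of the 527 Ccl3 UMIs 179 lay in 1 cell. Whether such cells passed the C1q gate was not examined.

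In cycling cDC1 Jchain, the antibody joining chain of plasma cells, had 555 UMIs in 8 of 80 tamoxifen cells against 7 in 6 of 51 oil cells (5.85), and C1qb 321 in 13 cells against 6 in 3 cells (5.29). Acp5, tartrate-resistant acid phosphatase, had 23 UMIs in 15 cells against 466 in 13 cells (-4.80), and -0.96 without marked doublets. Ccl5 had 39 UMIs in 12 cells against 497 in 7 cells (-4.13), and 2.22 without marked doublets, so its direction turned. Among cells of exactly 1 gate the ratios were -8.32 for Acp5 and -6.86 for Ccl5. In cycling cDC2 S100a9 had 4603 UMIs in 16 of 89 tamoxifen cells against 5 in 5 of 117 oil cells (10.28), and 2.23 without the Ngp cells. Hspb1, a small heat shock protein, had 3 UMIs in 3 cells against 146 in 13 cells, a ratio of -5.17 (-7.46 to -3.59), beside -0.02 in other cDC2 and -2.61 without marked doublets. Values that rest on 1 to 3 cells describe those cells and not the gate.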

How the data were processed

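The authors deposited raw UMI counts per gene and cell barcode for each library, made with Cell Ranger 5.0.1 on GRCm38 (mm10), as the submitters' processing notes list; the annotation release, not given in the sources used here, is unknown. The libraries were 10x 3' v3 libraries, 1 per group. From these counts, kept cells had at least 300 genes and under 10% mitochondrial UMIs. The members and the 21 gene lists were chosen with earlier results of these data known, as were the genes that checked the gates.

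Cycling cells were compared with other cells of the same library by pooled UMIs, weighting the other cells to the gate combinations of the cycling cells. Tamoxifen and oil were compared by pooled UMIs within a gate. Genes needed 20 UMIs, observed plus expected. Log2 ratios carry conditional Poisson 95% intervals, shares Clopper-Pearson intervals and share ratios Katz intervals. A count of 0 was set to 3 UMIs for a bound. The named genes were up to 15 each way that differed at least 2-fold in the same direction in both libraries, ranked by the interval bound nearest 0. For tamoxifen over oil they were up to 6 each way in gates with 30 cycling cells in each library. The 7 transcripts, receptor segments, mitochondrial, ribosomal, haemoglobin, Xist, Y-linked and clone-named genes were left out of the naming, and members of the lists were named as well.

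Scrublet (in scanpy 1.11.5) with its automatic threshold marked 473 tamoxifen barcodes (4.67%) and 4 oil barcodes (0.0589%), so it did not work in the oil library. The highest-scoring 0.8% per 1000 barcodes were marked in its place, 822 (8.11%) in the tamoxifen and 369 (5.43%) in the oil library. They were kept in the values reported and left out as an alternative. Other alternatives changed the number of markers, the markers, the depth, the filters on cells and genes, the gates, the matching and the scaling. Python 3.11.15, numpy 2.4.6, pandas 2.3.3, scipy 1.17.1, anndata 0.12.19 and matplotlib 3.10.9 were used, and the ratios were checked on simulated data.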

Additional observations from a re-analysis of the deposited data

How the results depend on the processing

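No paired analysis was possible because each group is 1 library, and no replicate could be left out. Depth limited the results most. With cells thinned to 1500 UMIs the cycling share was 1.08% in the tamoxifen and 1.41% in the oil library (log2 ratio -0.39, -0.81 to 0.02). The gate ratios were -0.93 (-2.23 to 0.37) for C1q macrophages, 0.78 (-1.16 to 2.72) for cDC1 and -0.82 (-1.74 to 0.10) for cDC2. Each of these intervals holds 0. For gene ratios the cycling cells were those chosen at full depth, and fewer genes reach 20 UMIs when thinned. After thinning, 349 were 2-fold higher and 140 lower in cycling cells of the tamoxifen library, against 800 and 584 at full depth. In the oil library these were 295 and 113, against 837 and 536. The set of genes measured differs between settings, here and in the counts below. A count without its share therefore does not show whether ratios were smaller or larger. In the tamoxifen library the thinned counts of genes 2-fold higher were 20 for replication, 10 for mitotic kinases, 3 for the anaphase-promoting complex, 13 for kinetochores and 4 for repair. In the oil library they were 9, 7, 1, 8 and 1 for these lists, 17 for the spindle, 7 for condensin and cohesin and 7 for nucleotide synthesis. Cdkn1b in the tamoxifen library turned to 0.17 when thinned, with an interval of -0.25 to 0.56 that holds 0. The shares in the tamoxifen and oil libraries were 4.46% and 4.96% with 2 of the 7 transcripts (cDC1 ratio -0.49, with an interval of -0.85 to -0.13 that no longer holds 0). They were 2.13% and 2.22% with 4 of the 7, and 3.17% and 3.52% in cells with at least 1000 genes. With 7 other transcripts they were 1.78% and 2.13%, and the ratio for cells of no gate was -1.24 (-3.15 to 0.67). A mitochondrial limit of 25% gave 2.3% in the oil library. Among cells of exactly 1 gate the ratios were -1.76 (-5.21 to 1.70) for B cells, 0.34 (-0.99 to 1.66) for alveolar macrophages and 0.32 (-0.46 to 1.10) for cDC2. The B cell ratio rests on 1 cycling tamoxifen cell and 2 oil cells, and all 3 intervals hold 0. The C1q gate then had 0 cycling oil cells and gave no ratio, and 260 genes were lower in cDC1 in place of 168. Splits by the sex of the cells, chosen after seeing the data, gave 3.28% in female oil cells. Male cells had 4.05% in the tamoxifen and 3.26% in the oil library, a ratio of 0.32 (-0.22 to 0.85). In male cells the ratio was 0.68 (-0.37 to 1.73) in the T gate and 1.18 (-0.60 to 2.96) in alveolar macrophages. It was 0.70 (-0.57 to 1.97) in C1q macrophages and 0.53 (-0.37 to 1.42) in cDC1, so each of these intervals holds 0. Without matching on gates, 882 genes were lower in cycling cells of the tamoxifen library and 968 in the oil library. With a minimum of 50 UMIs these were 318 and 295, and with 1 UMI 2037 and 2016, beside 2126 and 1846 higher. At 50 UMIs the genes higher and lower in tamoxifen over oil were 160 and 89 in T cells, 64 and 59 in C1q macrophages, 106 and 39 in cDC1 and 97 and 64 in cDC2. Without marked doublets Ccl5 in cycling cDC1 turned to 2.22. Shares and counts moved by less than their interval or 1.5 times with a mitochondrial limit of 5%, with median-of-ratios scaling, without marked doublets and without cells of 10 or more Ngp UMIs. The cause of the other differences was not tested.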
